A study of Mus musculus with 6 samples.

Results

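Ribosomal protein pseudogenes were followed in RNA from whole mouse brain. They were all genes of the GENCODE M21 annotation whose symbol starts with Rpl or Rps and contains -ps, which gave 300 of the 55450 genes in each deposited table. The annotation types 287 of them as processed pseudogenes, 7 as transcribed processed pseudogenes and 6 as protein-coding. For 298 of them a coding gene of the symbol before -ps exists and is called the parent here, and these parents numbered 60. Rps4l-ps and Rpl48-ps1 had no such parent.

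Processed pseudogenes arise when a messenger RNA is copied back into DNA and inserted at a new place of the genome, usually without introns and without the parent's promoter. Ribosomal protein genes, whose messenger RNAs are short and abundant in every cell, have left more such copies in mammalian genomes than most gene families. A copy can gather reads because it is transcribed itself, because it lies within another transcribed gene, or because reads of its parent are placed on it, and a table of counts per gene does not separate these.

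Long RNA was sequenced from 3 libraries of TRMT1L KO brain and 3 libraries of wild-type (WT) brain, which the labels call biological triplicates. TRMT1L is a protein related to the tRNA methyltransferase TRMT1. The allele, strain, age and sex of the mice are not given in the sources used here, nor is it said whether each library came from 1 animal, so the p-values measure the spread between these libraries. The RNA was total RNA selected for molecules above 200 bp, sequenced after TruSeq total RNA library preparation.

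Libraries held 78341827 to 89979690 reads, of which 31201119 to 36145961 were counted in genes on the sense strand. The targeted gene Trmt1l had 1279, 1034 and 1158 counts in WT and 93, 101 and 106 in KO, a log2 fold change of -3.58 (SE 0.081, adjusted p = 6.95e-10, edgeR), which goes with the labels. Every listed marker of neurons, astrocytes, oligodendrocytes, microglia, endothelium, choroid plexus and blood was detected in all 6 libraries. Reads that mapped to several places, which these tables leave out of every gene, made up 4.92% ± 0.280 of the WT libraries and 5.48% ± 0.196 of the KO libraries (mean ± SD of n = 3, as for all such values here). The groups did not overlap, and the two-sided exact permutation test gave p = 0.1, the smallest possible with 3 against 3.

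Rpl38-ps2 collected more sense counts than any other of the 300. It lies at chr6:140746960-140747172 on the minus strand of GRCm38, within Gm11077, a gene of the opposite strand, without touching its exons, and its transcript of 213 bases was identical to Rpl38, which codes for a small protein of the large ribosomal subunit. Its coding part of 210 bases (chr6:140746963-140747172, 5′ to 3′ on the minus strand, from the GENCODE M21 transcripts) is shown because no base sets it apart from its parent, so it has no capitals.
Rpl38-ps2: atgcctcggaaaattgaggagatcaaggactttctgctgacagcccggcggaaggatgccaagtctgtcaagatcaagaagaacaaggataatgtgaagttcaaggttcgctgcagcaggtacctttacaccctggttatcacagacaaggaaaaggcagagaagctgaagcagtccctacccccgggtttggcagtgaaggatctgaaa

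The next 2 pairs show the other kinds of copy. Rpl23a-ps2 lies in an intron of Rabep1, which codes for an endosomal protein, on the same strand, and 290 of its 291 stranded counts were sense. Rps19-ps11 lies within Pdss2, a gene of coenzyme Q synthesis, on the opposite strand, and all of its reads were antisense. Each stretch is the ungapped 120 bases of the coding part with the most differences from the parent, at chr11:70879588-70879707 on the plus strand for Rpl23a-ps2 and at chr10:43373665-43373784 on the minus strand for Rps19-ps11. Capitals mark the 7 and 13 bases that differ.
Rpl23a-ps2: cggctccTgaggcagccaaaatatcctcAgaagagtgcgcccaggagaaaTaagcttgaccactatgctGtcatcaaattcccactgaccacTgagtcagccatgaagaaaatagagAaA
Rpl23a: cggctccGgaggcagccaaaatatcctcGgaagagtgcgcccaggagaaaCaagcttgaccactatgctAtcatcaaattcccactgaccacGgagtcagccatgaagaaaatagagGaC
Rps19-ps11: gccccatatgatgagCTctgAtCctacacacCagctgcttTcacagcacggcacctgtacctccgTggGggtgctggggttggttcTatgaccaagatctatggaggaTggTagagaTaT
Rps19: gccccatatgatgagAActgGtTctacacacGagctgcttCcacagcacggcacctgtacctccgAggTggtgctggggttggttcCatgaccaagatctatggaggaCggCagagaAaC

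Counts were small. At least 1 sense count in any library was seen for 186 of the 300 pseudogenes, at least 10 counts summed over the 6 libraries for 92 (30.7%), and a mean of at least 50 counts per library for 6. The other 114 had no sense count, which allows up to 0.0146 CPM each (CPM are counts scaled to each library's counts in genes, with TMM factors), and 70 had no count in any of the 3 count columns. The CPM limit presumes reads that can be placed at 1 position. In 15 of the 114 every stretch of 50 bases was also found in another gene. The share with at least 10 sense counts was 21.6% among 9653 other processed pseudogenes and 76.4% among protein-coding genes. Of the transcribed processed pseudogenes 5 of 7 reached 10 counts, and of the members typed as protein-coding 3 of 6. Summed over members and libraries there were 10829 sense counts, 0.00527% of all counts in genes, and in a ratio of 1.09% to the counts of the 60 parents. A few copies held most of these: Rpl38-ps2 alone had 21.8%, and the 12 most abundant together had 53.4%.

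The sense counts of Rpl38-ps2 were 404, 376 and 401 in WT and 413, 367 and 403 in KO, or 11.7 ± 0.577 CPM in WT and 11.3 ± 0.511 in KO. The groups overlapped, and the log2 fold change of -0.06 (SE 0.083, adjusted p = 0.893, edgeR) was smaller than its error and ran from -0.0951 to -0.0275 when 1 library was left out. Per kilobase of annotated exon its level was 54.1 CPM, beside 102 CPM for Rpl38, a level of the parent's order. The exon lengths used were 213 bases for the copy and 542 for Rpl38, which had a mean of 55.3 CPM before that division. Another 10 of the most abundant copies, described next, lay between 1.41 and 5.12 CPM per kilobase. Among them Rps23-ps1 and Rps16-ps2 are also identical to their parents, which stood at 78.7 for Rps23 and 38.3 for Rps16. By this measure Rps19-ps3 was the closest of these to its parent, at 5.12 CPM per kilobase beside 10.1 for Rps19. Rpl23a-ps2 stood at 2.97 beside 95.5 for Rpl23a. The parents' values depend on unlike exon lengths, 4685 bases for Rps19 and 847 for Rpl23a. Before that division Rps19 had a mean of 47.2 CPM and Rpl23a of 80.9. Rps19-ps3 had between 1.44 and 2.61 CPM in single libraries, so its closeness to Rps19 is not seen in CPM.

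Rps19-ps3 (chr4:147821777-147822202, minus strand), which overlaps no other gene and starts 784 bp past the end of Zfp933 on the same strand, had 85, 74 and 77 counts in WT and 50, 88 and 73 in KO. Its parent Rps19 is the gene first tied to Diamond-Blackfan anaemia. The WT libraries of Rps19-ps3 were close together at 2.34 ± 0.0132 CPM, while KO libraries 1 and 3 lay below them at 1.44 and 2.02 and KO library 2 above at 2.61.

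Rpl3-ps1 (chrX:13202571-13203780, plus strand), with 2 mismatches to the transcript of Rpl3 over 1210 bases, had 72, 53 and 45 counts in WT and 62, 54 and 67 in KO. Rps23-ps1 (chr3:37714740-37715164, plus strand), identical to Rps23 over its whole length, had 60, 39 and 57 in WT and 57, 60 and 59 in KO. Rps16-ps2 (chr5:129128077-129128517, minus strand), identical to Rps16 and opposite the receptor gene Adgrd1, had 42, 29 and 41 in WT and 32, 32 and 39 in KO. In all 3 of these near-perfect copies WT and KO overlapped.

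Another 3 lie inside a gene of their own strand. Rpl21-ps12 (chr6:90844981-90845460, minus strand) had 53, 51 and 55 counts in WT and 55, 49 and 45 in KO. Rpl23a-ps2 (chr11:70879428-70879901, plus strand) had 54, 41 and 48 in WT and 52, 44 and 51 in KO. Rps15a-ps6 (chr11:6172644-6173036, minus strand) had 40, 39 and 24 in WT and 32, 39 and 24 in KO. Their identity to the parent was 97.9%, 94.1% and 98.7%, and the groups overlapped in each.

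The last 3 were Rpl14-ps1 (chr7:45324965-45325617, plus strand), Rpl28-ps3 (chr4:126069867-126070259, minus strand) and Rpl30-ps9 (chrX:105278637-105278981, minus strand). Rpl14-ps1 had 53, 31 and 32 counts in WT and 42, 51 and 37 in KO. Rpl28-ps3 had 52, 32 and 33 in WT and 40, 53 and 33 in KO. Rpl30-ps9, which overlaps no other gene, had 43, 26 and 39 in WT and 41, 45 and 35 in KO. Over these 11 copies, log2 fold changes lay between -0.21 and 0.12 and adjusted p-values (edgeR) between 0.818 and 0.989, and no pair of groups was apart. The lowest of these was Rps19-ps3, whose -0.21 was -0.0212 without KO library 1 and -0.44 without KO library 2, where its unadjusted p by edgeR was 0.0398 and its adjusted p 0.673.

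**Figure D1:**
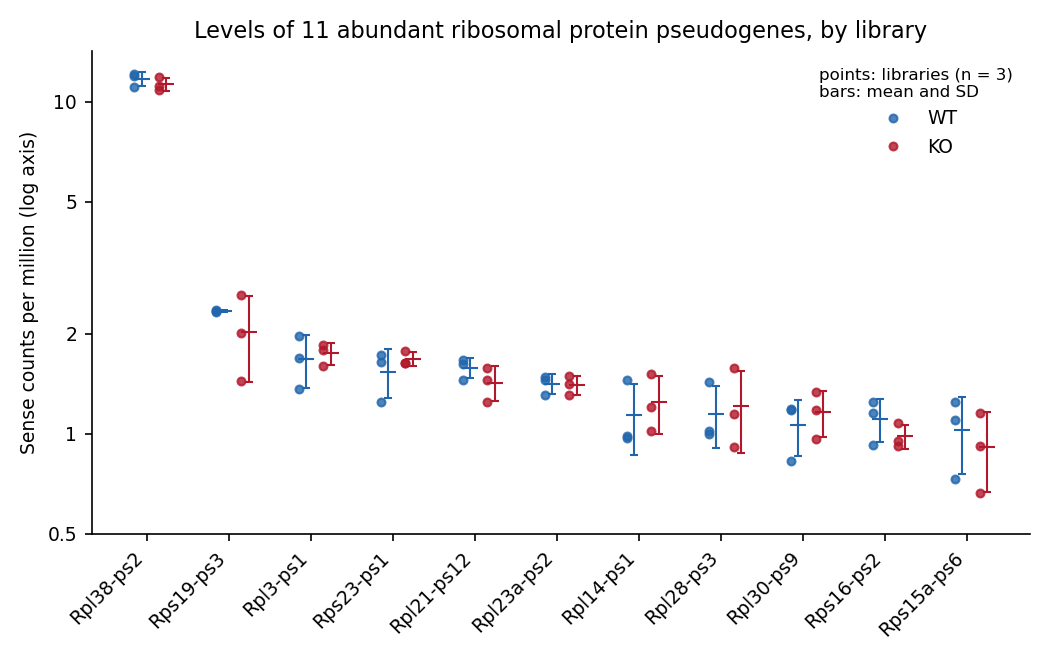
Sense CPM (log axis) of 11 of the most abundant pseudogenes, with 1 point for each of the 3 WT and 3 KO libraries and bars for the mean and SD. Rpl38-ps2 stands apart at 11.7 CPM in WT and 11.3 in KO, and WT and KO overlap for each of the 11.

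The reads of the pseudogenes were far less often sense than those of their parents. Of all stranded counts of the 300, 65.5% were sense (95% interval 64.8 to 66.2, exact Clopper-Pearson, covering counting error only), 65.9% ± 0.409 in WT and 65.2% ± 0.642 in KO (SD, n = 3). The share was 99.0% for the parents, 94.7% over all genes and 47.0% for other processed pseudogenes. Without Rpl38-ps2 it was 59.8%. At least 10 antisense counts were seen for 55 members, and among the 134 with at least 10 stranded counts, 47 had more antisense than sense counts.

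Single pseudogenes mostly fell to one side. Among 70 with at least 60 stranded counts, 35 were over 90% sense, 22 were under 10% sense and 13 lay between. The side went with the strand of the overlapping gene. All 13 such members that overlap a gene on their own strand were over 90% sense. Of the 34 that overlap a gene on the opposite strand, 4 were over 90% sense, 20 under 10% and 10 between. Of the 22 that overlap no other gene, 18 were over 90% sense, 2 under 10% and 2 between.

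In counts, the 29 members that overlap a same-strand gene had 2591 sense and 11 antisense counts, and 17 of them reached 10 sense counts and none 10 antisense. The 60 on the opposite strand of a gene had 4272 sense and 4952 antisense counts, and 40 of them reached 10 antisense counts but 16 reached 10 sense. The 207 that overlap no other gene had 3885 sense and 594 antisense counts, a sense share of 86.7%. A further 4 overlap genes on both strands.

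No sense count at all was seen for 11 of the 70, each of them opposite a gene, and the 5 of these with the most antisense counts are given here. Rps2-ps9 (chr17:27784379-27785246, plus strand) lies within D17Wsu92e and had 71, 58 and 62 antisense counts in WT and 82, 80 and 63 in KO, so that 0 of 416 stranded counts were sense, which allows a share of up to 0.721% (3 counts of the total, a limit for counts of 0 that is not the Clopper-Pearson interval used above). Rpl15-ps5 (chr7:97594837-97595441, minus strand), within the chromatin remodelling gene Rsf1, had 50, 38 and 37 antisense counts in WT and 56, 43 and 49 in KO, and its 0 of 273 allows up to 1.10%. Rps19-ps4, within the leucyl-tRNA synthetase gene Lars, had 181 antisense counts, Rpl30-ps3 within Fnbp4 had 143, and Rps19-ps11 had 134. WT and KO overlapped in the antisense counts of Rps2-ps9 and of Rpl15-ps5.

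Among members with both strands, Rps23-ps1 had 332 sense and 284 antisense counts, a sense share of 53.9% (95% interval 49.9 to 57.9), and overlaps an exon of Gm5148 on the opposite strand. In the column that ignores strand it had 2 counts, since a read that falls in 2 genes is left out there. Rpl14-ps1, opposite the cation channel gene Trpm4, was 85.7% sense, and Rpl28-ps3, opposite Oscp1, 84.4%. In these 2 the antisense counts were 41 and 45. Rpl38-ps2, although opposite Gm11077, was 99.7% sense, and that host had 6 counts in all 6 libraries together.

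**Figure D2:**
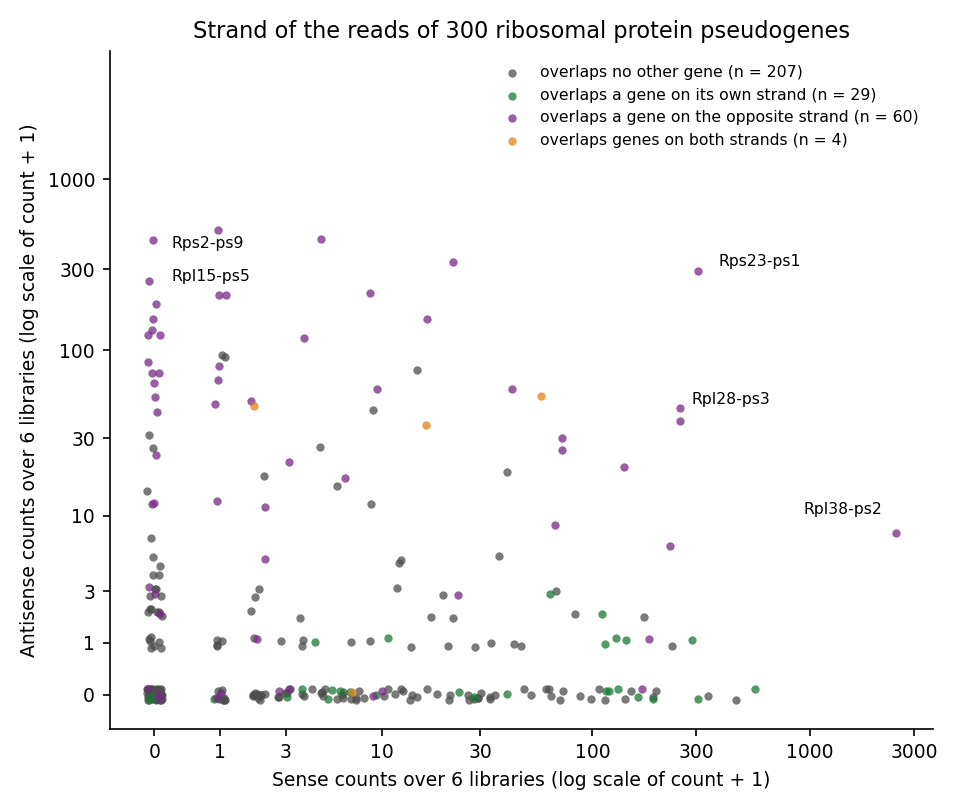
Sense counts (x axis) against antisense counts (y axis) summed over the 6 libraries for each of the 300 pseudogenes, both on a log scale of count + 1 with a small random shift, coloured by the strand of any overlapping gene. Pseudogenes that overlap a same-strand gene lie along the bottom, while those opposite a gene reach up the left side, where Rps2-ps9 has 416 antisense and 0 sense counts.

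The level of the gene around a copy went with the copy's counts. A gene whose span holds the whole pseudogene is called its host here. Across the 26 members inside a same-strand host, sense counts had a Spearman correlation of 0.73 with the host's counts and of -0.08 with the parent's counts. None of the 26 touched an annotated exon of the host, so each lies in an intron. Across the 64 inside an opposite-strand host, antisense counts correlated with the host's counts at 0.78 and with the parent's at 0.0089. The points of each correlation share the same 6 libraries, and some members share a parent, so these are descriptions without a test.

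Single copies show the range. Rpl21-ps12, with 308 counts, lies within Iqsec1 at 452 CPM, a gene for an Arf exchange factor. Rpl23a-ps2 lies within Rabep1 at 157 CPM, and Rps15a-ps6 within Nudcd3 at 125 CPM. At the other end, Rplp0-ps1 within Flg had 10 counts and its host none. Ide, at 37.6 CPM, held Rpl10-ps6, a copy of 99.8% identity to Rpl10, which had no sense count.

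**Figure D3:**
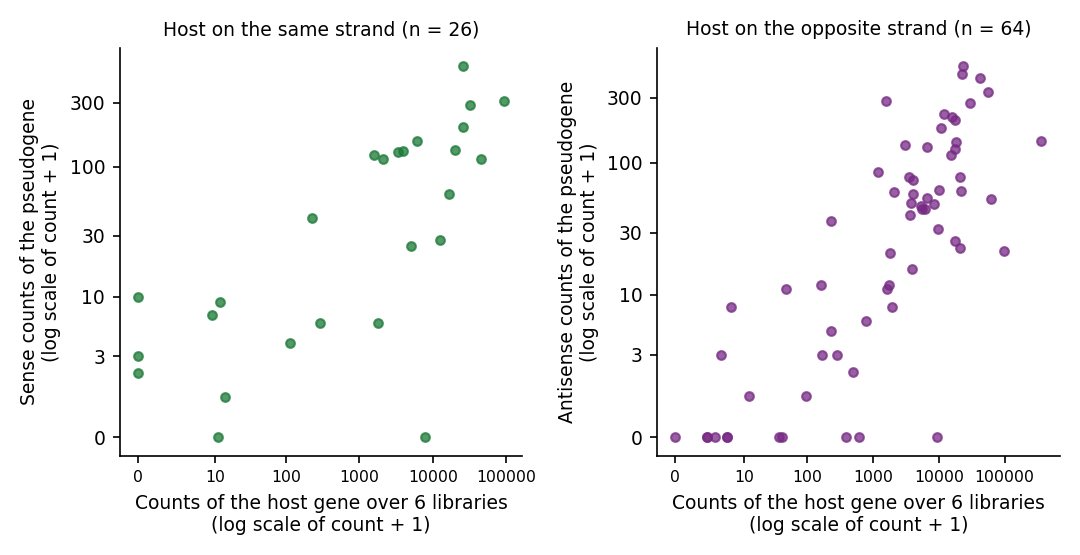
Counts of the host gene (x axis) against counts of the pseudogene inside it (y axis), summed over the 6 libraries on a log scale of count + 1, for 26 pseudogenes in a same-strand host (left, sense counts) and 64 in an opposite-strand host (right, antisense counts). In both panels pseudogenes in hosts with more counts lie higher, with Spearman correlations of 0.73 and 0.78.

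Likeness to the parent went with sense counts as well. The transcripts of 294 members could be aligned to the parent over at least 50 columns in the same direction, with an identity from 68.1% to 100% and a median of 96.2%. At least 10 sense counts were reached by 4 of 60 members under 90% identity, 9 of 66 between 90% and 95%, 18 of 69 between 95% and 98% and 59 of 99 at 98% or above. The Spearman correlation of identity with sense counts was 0.54 over the 294, while that of the parent's counts with the member's was -0.0024. These are descriptions, since many members share a parent.

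The same order held among the 204 aligned members that overlap no other gene, with 2 of 42, 7 of 53, 13 of 52 and 34 of 57 in the 4 classes. Opposite a gene, sense counts of at least 10 were seen in 15 of 25 members at 98% or above and in 1 of the 34 below. Antisense counts there showed no such order, as 9 of 13, 7 of 8, 8 of 13 and 15 of 25 members reached 10, from the lowest class to the highest. The aligned members that overlap a same-strand gene did not follow the order, as 2 of 5, 2 of 5, 3 of 3 and 9 of 14 reached 10 sense counts.

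Sense counts also differed by frame and position. The 144 members with no frameshift, no early stop codon and at least 95% of the parent's coding part reached 10 sense counts in 42.4% of cases, against 19.3% of the other 150. Frame was not compared within classes of identity, so this difference is not shown to be separate from that by identity. Among the 204 aligned members that overlap no other gene, 14 of the 56 with at least 10 sense counts lay within 10000 bp past the end of a same-strand gene, and 16 of the 148 with fewer.

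The annotation of 4 members goes against their symbol. Rpl13-ps1 aligned to Rpl13 on the opposite strand alone, over 669 columns at 92.4% identity, so its 115 sense counts, within the same-strand host Usp32, run antisense to the copied sequence. Rpl18-ps1, Rpl17-ps11 and Rps7-ps2 did not align to the named parent over 50 columns in either direction. They were left out of the counts by identity.

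**Figure D4:**
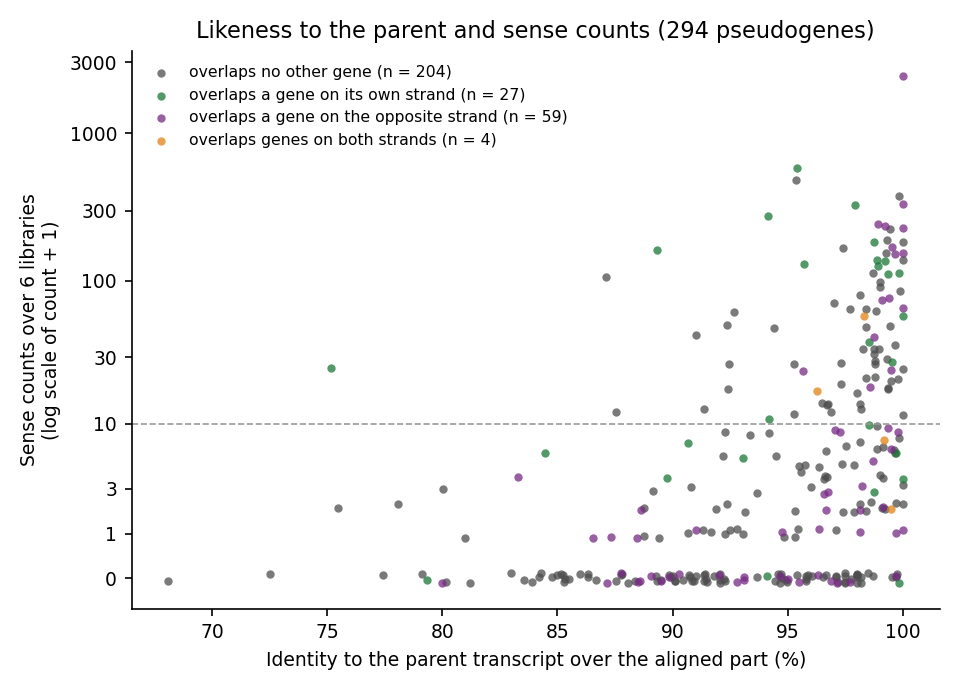
Identity of each of 294 pseudogenes to its parent's transcript over the aligned part (x axis, percent) against its sense counts over the 6 libraries (y axis, log scale of count + 1), coloured by the strand of any overlapping gene, with a dashed line at 10 counts. Counts above the line crowd at identities of 98% and over, where 59 of 99 members lie above it.

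Identity also bears on which reads can be counted, because a read that fits several places equally is left out. Each 50-base window of each pseudogene was looked up in all GENCODE M21 transcripts of genes that do not overlap it. In 33 members every window was also found in another gene. Of these, 9 had windows shared with the parent alone, and all 9 reached 10 sense counts, from 25 in Rps13-ps2 to 2364 in Rpl38-ps2. In the other 24 every window was also in a gene other than the parent, and of these 2 reached 10 counts (Rpl17-ps5 with 144 and Rpl28-ps1 with 63), 15 had none and the rest at most 4. These names were chosen after their values were seen.

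The copies are unspliced, so part of each is in 1 piece at the copy and split between exons at the parent. In Rpl38-ps2, 47.6% of the 50-base windows run across an exon junction of Rpl38, and over the 294 aligned members the share had a median of 39.5%, with a correlation of -0.03 with sense counts. The part that reads from parent transcripts had in the counts was not tested.

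Families of copies differed from each other. Rpl31 and Rps12 each have 24 copies and Rpl21 has 15. Sense counts of at least 10 were reached by 5 of the Rpl31 copies, 3 of the Rps12 copies and 5 of the Rpl21 copies, and no sense count was seen for 10, 17 and 3 of them. The summed counts were 533, 221 and 484, which as a ratio to the parent's own counts is 2.65%, 1.02% and 1.60%. Most of the counts of the last 2 families came from a single copy in a same-strand host, Rps12-ps26 with 155 within Nol11 and Rpl21-ps12 with 308 within Iqsec1. The counts of the 2 Rpl38 copies, nearly all in Rpl38-ps2, stood in a ratio of 20.9% to those counted on Rpl38 itself. Rps10 itself was low at 2.32 ± 0.0591 CPM in WT, and the counts of its 4 copies stood in a ratio of 24.9% to its own.

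No ribosomal protein pseudogene passed the test between KO and WT. In all 44 passed the filter on low counts, and none had an adjusted p under 0.05, where 0.00942% of the 21237 genes tested did. None had an unadjusted p under 0.05 either by edgeR, where 7.92% of all genes did, none by DESeq2 and 1 by limma-voom. The share of all genes called by DESeq2 and limma-voom is not given here. WT and KO were apart in 3 of the 44, 6.82% beside 14.5% of all genes. The log2 fold changes were above 0 for 20, or 45.5% beside 50.1% of all genes, with a median of -0.02. Their SEs lay between 0.083 and 0.460 with a median of 0.27, which is larger than the median change of their parents, 0.0972.

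The 3 whose groups did not overlap were Rpl9-ps6, Rps26-ps1 and Rpsa-ps10. Rpl9-ps6, typed as protein-coding, had 19, 16 and 18 counts in WT and 14, 10 and 12 in KO, a log2 fold change of -0.61 (SE 0.28, adjusted p = 0.628, edgeR). Rps26-ps1 had 11, 11 and 7 counts in WT and 17, 14 and 15 in KO, a log2 fold change of 0.60 (SE 0.32, adjusted p = 0.659, edgeR). Rpsa-ps10, named after its values were seen, had 29, 25 and 28 in WT and 39, 30 and 38 in KO, a log2 fold change of 0.33 (SE 0.21, adjusted p = 0.730, edgeR). All 3 differences rest on few reads per library.

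The summed sense level of the 300 members was 56.1, 52.9 and 51.3 CPM in the WT libraries and 53.2, 52.6 and 50.2 in KO, a mean of 53.4 ± 2.43 against 52.0 ± 1.59 with overlapping groups. In a bulk sample, fewer cells of a type and less RNA per cell cannot be told apart. The summed antisense level was 27.7 ± 0.787 in WT and 27.8 ± 0.971 in KO. In the antisense column 27 members passed the filter, and none had an adjusted p under 0.05 by edgeR (0.0278% of the 10787 genes tested). With an unadjusted p under 0.05 there was 1 (5.75% of all genes), lower in KO (2.84%), and none higher (2.91%). WT and KO were apart in 2 (7.41% beside 10.7%), and 14 were above 0 (51.9% beside 49.8%). The 1 called was Rpl30-ps2, opposite Thsd1, named after its values were seen, with 18, 17 and 18 antisense counts in WT and 11, 7 and 14 in KO, a log2 fold change of -0.79 (SE 0.34, adjusted p = 0.798, edgeR).

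The parents stood higher in KO as a sum, though none passed the test. Their summed level was 4678, 4596 and 4629 CPM in WT and 5025, 4876 and 5132 in KO, a log2 difference of 0.11 with no overlap. All 60 were tested by edgeR, none had an adjusted p under 0.05, and 27 had an unadjusted one, all higher in KO, a direction in which 4.54% of all genes were called. Their log2 fold changes were above 0 for 58 of 60, with a median of 0.11 beside 0.0001 over all genes. The wider list of 81 cytosolic ribosomal protein genes gave 34 unadjusted calls among 79 tested, again all higher in KO, and 16 without KO library 3. The summed level of the choroid plexus markers was also higher in KO, ranging from 309 to 364 CPM in WT and from 368 to 441 in KO without overlap, with unadjusted calls (edgeR) for 2 of its 5 markers. The summed levels of the other 6 marker lists overlapped between groups, with unadjusted calls for 3 of 4 astrocyte markers (2 higher and 1 lower in KO), 1 of 4 oligodendrocyte and 1 of 4 microglia markers (both lower), 1 of 5 blood markers (higher) and none of the neuron or endothelium markers. The share of reads in no gene was also apart, at 51.2% ± 0.925 in WT and 49.3% ± 0.601 in KO, as was that of reads with several places, given above. The part of these in the parents' levels was not tested.

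Of other processed pseudogenes, 864 were tested and 34 had an unadjusted p under 0.05 by edgeR, 8 higher and 26 lower in KO (4.54% and 3.38% of all genes were called in these directions). Far fewer were called by DESeq2, as given in the closing section. Over the 864 the median log2 fold change by edgeR was -0.07 and 36.8% were above 0, beside -0.02 and 45.5% for the ribosomal protein pseudogenes.

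Across the 44 tested members and their 31 parents, no relation of copy and parent was seen. The sign was shared by 20 of 44, and since every one of these parents was above 0, this is the count of copies above 0. Among the pairs is Rpl13-ps1 (0.43, SE 0.31), whose reads run antisense to the copied sequence, and without it 19 of 43 shared the sign and the median difference given next was -0.12. The correlation of log2 fold changes was 0.03 (Pearson) and 0.04 (Spearman), as a description over pairs of which some share a parent. The median difference, copy minus parent, was -0.11 (-0.17 without WT library 3), and in 42 of 44 pairs the difference was within 2 combined SEs. The copy's SE exceeded the size of the parent's change in 43 of 44 pairs, so neither following nor its absence was detectable for single copies at this depth.

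**Figure D5:**
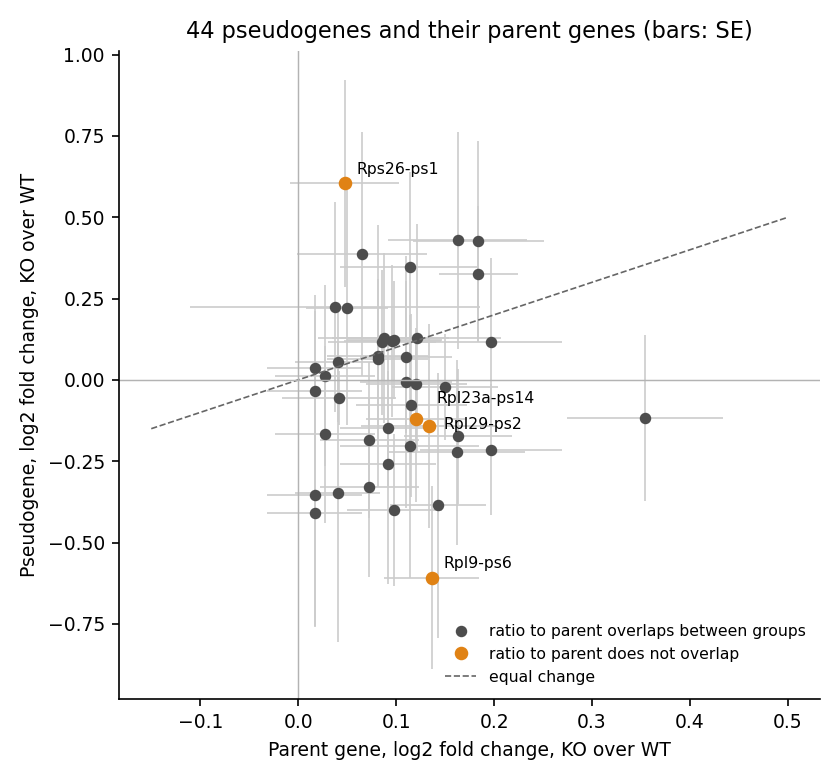
Log2 fold change, KO over WT, of the parent gene (x axis) against that of the pseudogene (y axis) for the 44 pairs tested, with SE bars on both and a dashed line of equal change. All parents lie to the right of 0, while 20 copies lie above 0 and 24 below, and the 4 copies whose ratio to the parent did not overlap between groups are named.

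The ratio of copy to parent, as log2 with 0.5 counts added to each, did not overlap between groups in 4 of the 44 pairs, or 9.09%, being lower in KO in 3 and higher in 1. With 3 against 3 libraries the exact permutation test gives each of these p = 0.1, which is also the share of label splits that leave the groups apart. The 9.09% is near that share. The smallest adjusted value over the 44 was 0.825, so no pair passed the test and the 4 are given as values only. For Rpl9-ps6 the log2 ratio was -7.44, -7.35 and -7.34 in WT and -7.88, -8.28 and -8.19 in KO, a difference of -0.74, while its parent Rpl9 had a log2 fold change of 0.14 (SE 0.048). For Rps26-ps1 it was -7.10, -7.02 and -7.58 in WT and -6.52, -6.72 and -6.79 in KO, a difference of 0.56, with Rps26 at 0.05 (SE 0.056). The other two, Rpl29-ps2 at -0.29 (Rpl29 codes for a protein of the large subunit) and Rpl23a-ps14, in an intron of the centrosomal gene Cep112, at -0.22, had smaller differences. The nearest libraries of the groups were at -7.59 in WT and -7.62 in KO for Rpl29-ps2 and at -7.03 and -7.05 for Rpl23a-ps14.

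The pairs were also split by how much of the copy is its own sequence. In 21 pairs at least 50% of the copy's 100-base windows were found in no other annotated gene, and 5 of these copies were above 0 (4 of 20 without Rpl13-ps1), with a median of -0.12 beside 0.11 for their parents. In the other 23 pairs 15 copies were above 0, with a median of 0.07 beside 0.09. The difference between these classes was not tested, and the classes share parents and libraries.

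For hosts the signs were mixed as well. Of 12 copies tested inside a tested same-strand host, 6 shared the host's sign. Of 24 tested by antisense counts inside an opposite-strand host, 11 shared its sign. The hosts themselves moved little, with a median log2 fold change of 0.0093 for same-strand and -0.0051 for opposite-strand hosts and no adjusted call among them by edgeR (1 of 19 and 1 of 51 had an unadjusted p under 0.05, beside 7.92% of all genes).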

How the data were processed

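Adapters were trimmed with cutadapt 1.9.1 and reads aligned with STAR 2.7.0f, per the submitters' processing notes. The read length and genome build are not given in the sources used here. The gene IDs equal those of GENCODE M21 on GRCm38. The authors deposited whole-number read counts per gene, not normalized, in 3 columns (unstranded, antisense, sense), as the file layout shows. Reads with several places are left out, as are reads in several genes, and 4 rows that name no gene were kept apart.

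Sense counts were tested in R 4.3.3 with edgeR 4.0.16 (filterByExpr, TMM, quasi-likelihood, Benjamini-Hochberg over 21237 genes), after a check on simulated data. Alternatives used DESeq2 1.42.0 and limma 3.58.1. SE is the log2 fold change divided by the square root of F. Positions and transcripts came from GENCODE M21. Transcripts were aligned locally with Biopython 1.88 (match 2, mismatch -3, gap -5 and -2). Windows were compared with annotated transcripts, not the genome. Libraries differed beyond sampling noise (chi-square per degree of freedom 4.08 to 8.69).

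Named were the 12 members with the highest CPM, any passing the test, up to 5 of lowest sense share with at least 60 stranded counts, up to 5 of largest non-overlapping ratio change, the 3 largest families, parents and hosts. Among these, 1 member is not reported here. Other names were chosen after their values were seen. Members and lists were chosen with earlier results of these data known.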

Additional observations from a re-analysis of the deposited data

How the results depend on the processing

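No member had an adjusted p under 0.05 by any alternative run, nor in the antisense fit, which was added after seeing the data. The number of members with an unadjusted p under 0.05, 0 as reported, was 1 with the unstranded column, 6 of 186 with no filter, 1 with limma-voom and 0 to 1 with 1 library left out (1 without KO library 2, which was Rps19-ps3). The share of all genes called in these fits is not given here, and in the main edgeR fit it was 7.92%. These numbers are therefore not read as more or fewer than among all genes. The replicate number pairs no libraries by the labels, and deviations of same-numbered libraries correlated at 0.0402, -0.0314 and -0.0581. With the replicate block the number of members called was 0 and the median of copy minus parent -0.09, and ribosomal protein genes gave 31 calls and other processed pseudogenes 31. Leaving out 1 library gave 16 to 38 calls for ribosomal protein genes and 23 to 40 for other processed pseudogenes. The latter, 34 of 864 as reported, were 93 of 4701 with no filter and 5 of 222 with a mean count of at least 50. By DESeq2, after the same filter as reported, there were 5. With the unstranded column there were 69, among a number tested that is not given here. As the numbers tested differ, these calls are not compared as counts. Members detected were 186 at 1 count, 6 at a mean of 50 and 55 in the antisense column. The sense share was 86.7% in members that overlap no other gene and 59.8% without Rpl38-ps2, the latter added after seeing the data. The median of copy minus parent moved to -0.24 for copies with at least 50% of 100-base windows of their own. Rpl28-ps3 turned to -0.0222 with the unstranded column. Leaving out 1 library turned the sign of 9 of 31 named log2 fold changes, Rpl28-ps3 included, with ranges of -0.0720 to 0.20 for Rpl3-ps1, -0.0039 to 0.21 for Rps23-ps1, -0.0656 to 0.0340 for Rpl23a-ps2, -0.0404 to 0.35 for Rpl14-ps1, -0.17 to 0.26 for Rpl28-ps3, -0.0287 to 0.23 for Rpl30-ps9, -0.37 to 0.0213 for Rps15a-ps6, -0.23 to 0.0687 for Rpl23a-ps14 and -0.0027 to 0.0619 for Rps15a. The causes were not tested. Few reads per library limit every comparison of single copies.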
